A study of Mus musculus with 12 samples.

Results

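The comparison set *ptgs2*-KO cells, in which the COX-2 gene was targeted, against scramble control cells in a genome-wide RNA-seq experiment. Its members were the 3 *ptgs2*-KO samples and the 3 scramble samples of a series of 12 samples, whose other 6 samples were 3 *ptgs1*-KO (COX-1) and 3 *ptges*-KO (mPGES-1) samples. Of 30705 gene names in the table, 11282 averaged 1 RPKM or more across all 12 samples and were tested. RPKM counts reads per kilobase of transcript, scaled to a fixed number of mapped reads. The lowest mean among the tested genes was 1.0 and the highest mean left out was 0.997; 101 tested genes had a mean of 1 to 1.1, 16 of which differed in the comparison, and 90 genes with a mean of 0.9 to 1 were not tested.

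All groups were the same murine melanoma cell line, which carries BrafV600E and was derived from a C57BL/6 mouse with Braf+/LSL-V600E, Tyr::CreERT2+/o and p16INK4a-/- alleles. Tyr::CreERT2 is a tamoxifen-activated Cre recombinase driven by the tyrosinase promoter, which is active in melanocytes, so every group shares the active Braf allele and the loss of p16INK4a. Scramble cells received control CRISPR/Cas9 reagents and *ptgs2*-KO cells received guides against *ptgs2*. Cells were selected with puromycin and subcloned by limiting dilution, and RNA came from untreated cultures grown in D-MEM with serum. Per the study, each RNA sample of a line came from a different subclone, so p-values measure the spread between subclones. Whether the subclones of a line arose from separate edited cells is not given in the sources used here, so a knockout and a clonal history that its subclones share cannot be told apart.

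COX-2 is the inducible cyclooxygenase. It converts arachidonic acid, released from membrane phospholipids, into prostaglandin H2, from which terminal synthases such as mPGES-1 make PGE2 and the other prostanoids. PGE2 acts on the EP receptors of the same cell or its neighbours. EP2 and EP4 raise cyclic AMP and thereby activate the transcription factor CREB, which binds the cyclic AMP response element. In tumours PGE2 is known for its part in angiogenesis, in the suppression of immune cells and in the growth of the cancer cells themselves.

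The cells had few marks of a pigmented melanocyte. Only 7 of 28 genes of the melanocyte lineage list passed the filter, and *Sox10*, *Tyrp1*, *Dct* and *Mlana* were listed at 0. Of the 7, 1 was higher and 1 lower in *ptgs2*-KO cells at a limma adjusted p under 0.05 (28.6%, beside 11.1% over all genes). None was higher without *ptgs2*-KO replicate 1 or scramble replicate 2. *Mitf*, the master regulator of melanocytes, had a mean of 2.68 RPKM in scramble and 2.23 RPKM in *ptgs2*-KO cells (log2 fold change -0.20, limma adjusted p = 0.564). *Pax3* had means of 5.70 and 5.24 RPKM (adjusted p = 0.725), and *Tyr*, the enzyme of melanin synthesis, 0.980 and 0.697 RPKM, which is under the filter. The intermediate filament gene *Vim* had a mean of 6875 RPKM, the receptor kinase gene *Axl* 988 RPKM and the stem cell factor gene *Sox2* 81.0 RPKM in scramble cells. These genes are typical of dedifferentiated melanoma lines. Of 42 listed neural crest and dedifferentiation genes, 26 passed the filter and 16 were under it.

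Markers of other cell types were low. The 14 fibroblast markers summed to 20.04, 18.2 and 24.6 RPKM in the scramble samples and 11.9, 11.8 and 10.2 RPKM in the *ptgs2*-KO samples; *Pdgfrb* was the most abundant, and 7 of the 14, *Dcn*, *Lum* and *Postn* among them, were at 0. The 12 endothelial markers summed to 13.5, 14.3 and 14.98 RPKM against 9.34, 10.8 and 8.98 RPKM, with *Egfl7* the most abundant and 5, including *Kdr* and *Cldn5*, at 0. The 17 leukocyte markers summed to 9.32, 11.2 and 8.46 RPKM against 7.72, 8.45 and 7.29 RPKM, with *Cd14* the most abundant and 7, including *Cd3e* and *Lyz2*, at 0. All 3 sums were lower in *ptgs2*-KO than in scramble samples, and the leukocyte sums nearly met. Keratinocyte markers (*Sfn* the most abundant, 6 of 12 at 0) summed to 4.84, 4.62 and 5.73 against 4.74, 3.52 and 3.44 RPKM, and Schwann cell markers (*Prx* the most abundant, *Sox10* at 0) to 13.6, 13.3 and 15.4 against 16.3, 14.96 and 12.2 RPKM, with overlapping groups. The part of such cells in the results was not tested, and in bulk RNA fewer cells of a type and less RNA per cell cannot be told apart.

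At an adjusted p under 0.05 (limma on log2(RPKM + 1), Benjamini-Hochberg over all 11282 genes), 1257 genes, or 11.1% of those tested, differed between *ptgs2*-KO and scramble cells. Of these, 674 were higher (5.97% of the genes tested) and 583 were lower (5.17%). Most changes were small: the median size of the log2 fold change among the called genes was 0.46, and 723 of the 1257 lay under 0.5. Only 111 reached 1 on the log2 scale, and among these the falls outnumbered the rises, with 71 lower and 40 higher. The median over all genes tested was 0.01, and the central part from the 5th to the 95th percentile ran from -0.48 to 0.35. The samples of the groups did not overlap in 1256 of the 1257 genes, as the test nearly fixes, nor in 3964 (35.1%) of all genes tested. Among the genes called higher, 18 had a mean under 1 RPKM in the other 9 samples and so passed the filter only through their level in *ptgs2*-KO cells, among them *Aim2*, *Fstl3* and *Hspb1*, described below. The plot of level against difference shows the spread. Unless another share is named, percentages called in lists and families below stand beside the 11.1% called over all genes tested. Where a level is given below as a change from one value to another, the values are the scramble and *ptgs2*-KO means ± SD (n = 3), and log2 fold changes are on the log2(RPKM + 1) scale, ± SE.

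**Figure D1:**
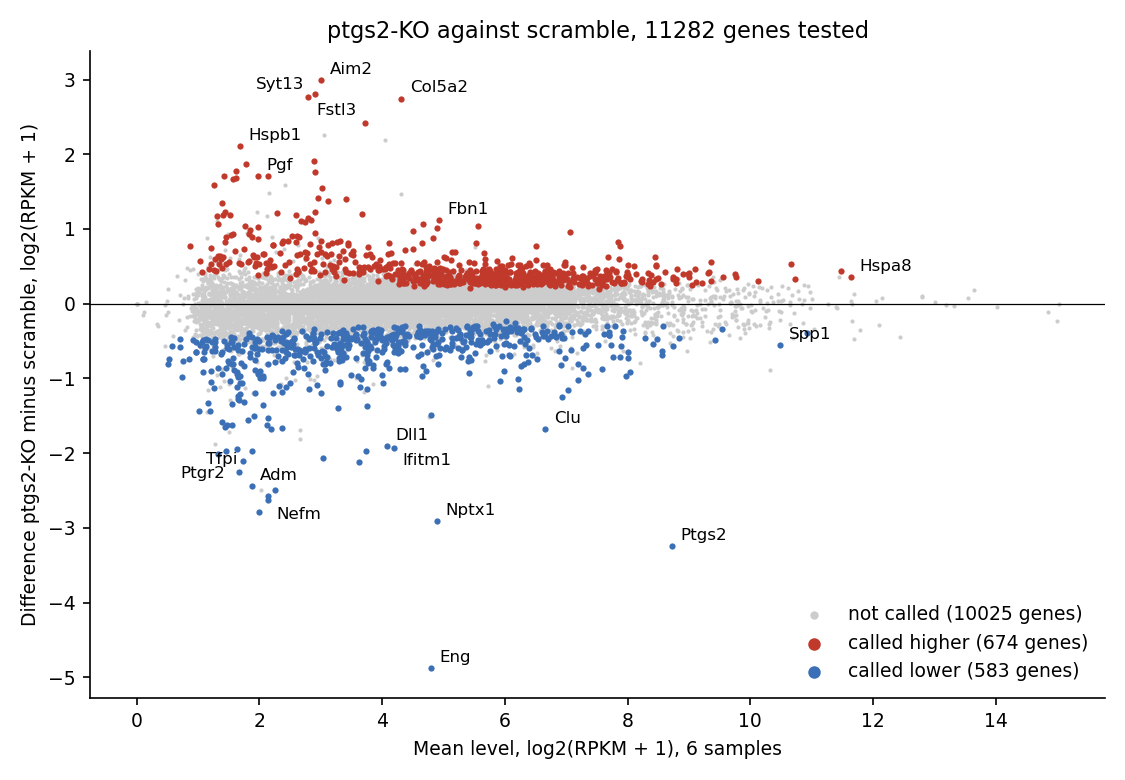
The x axis is the mean level over the 6 samples as log2(RPKM + 1), and the y axis is the difference between *ptgs2*-KO and scramble means on the same scale. Each point is 1 of the 11282 genes tested, grey where not called, with in colour the 674 genes called higher and the 583 called lower. The widest differences are falls, with *Eng* at -4.88, and the widest rise is that of *Aim2* at 2.99.

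Libraries differed in ways that bear on these counts. Summed over all genes, the values came to nearly the same total, from 878504 to 881246 in scramble and from 884743 to 886126 in *ptgs2*-KO samples, and the read depth is unknown because the files hold no counts. *Rn45s*, the precursor of ribosomal RNA, stood at 5550, 11269 and 7587 RPKM in scramble and at 17613, 2169 and 11879 RPKM in *ptgs2*-KO samples. The *ptgs2*-KO replicate 1 library stood apart by transcript length: its genes had a median log2 shift against the scramble mean of -0.47 below 1000 bases (505 genes) and of 0.21 above 6000 bases (1554 genes), whereas replicates 2 and 3 had -0.09 and -0.09 below 1000 bases and 0.05 and -0.08 above 6000. Without this library 822 genes were called, and without replicate 2 or replicate 3 of *ptgs2*-KO 885 and 802. Without scramble replicate 1, 2 or 3 the count was 722, 771 and 829, so every library left out lowered it.

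The targeted gene was low in every *ptgs2*-KO sample. *Ptgs2* (mm10 chr1:150100031-150108227, plus strand) had 749, 777 and 759 RPKM in the scramble samples and 78.5, 84.6 and 76.1 RPKM in the *ptgs2*-KO samples. The fall was 3.24 ± 0.0992 (SE) on the log2 scale (limma adjusted p = 4.04e-10), and the *ptgs2*-KO mean was 10.5% of the scramble mean. The groups were far apart, and some mRNA was still read in each knockout sample. *Ptgs2* averaged 598 RPKM in *ptgs1*-KO and 754 RPKM in *ptges*-KO cells. The row named Cox2 in the table is subunit II of mitochondrial cytochrome c oxidase, not *Ptgs2*, and was not used for it.

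Of the 28 enzymes of prostanoid synthesis and breakdown, 17 were tested, 1 was higher, 2 were lower (17.6% called, beside 11.1% over all genes), 10 were under the filter and 1 was not matched. Their median log2 fold change was 0.00, and the 1 higher call, *Ptges3*, the cytosolic PGE synthase and HSP90 co-chaperone p23, was lost without *ptgs2*-KO replicate 2 or 3 (adjusted p = 0.0591 and 0.0989) or scramble replicate 1 or 3 (0.108 and 0.0821). The other targets of the series did not pass the test: *Ptgs1* averaged 151 RPKM in scramble and 158 RPKM in *ptgs2*-KO cells (adjusted p = 0.754), and *Ptges* 77.6 and 67.3 RPKM (adjusted p = 0.117). *Ptges* passed as lower in 4 of 19 settings (lowest adjusted p = 0.00359), namely after median ratio scaling, after quantile normalization and with length and GC trends removed, with and without the replicate block, and 4 enzymes of the list were lower after median ratio scaling or with trends removed. Beside *Ptgs2*, the second enzyme to fall was *Ptgr2*, prostaglandin reductase 2, which degrades 15-keto-PGE2. *Ptgr2* had 4.89, 3.64 and 4.23 RPKM in scramble and 0.06, 0.06 and 0.17 RPKM in *ptgs2*-KO samples, a fall of 2.25 ± 0.128 on the log2 scale (adjusted p = 1.04e-07). It was near 0 in all 3 knockout samples and in none of the scramble samples, and it was also lower than in *ptgs1*-KO (log2 difference -2.37) and *ptges*-KO cells (log2 difference -2.39).

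Of 11 prostanoid receptors 4 were tested, 1 was higher (25.0% called, beside 11.1% over all genes) and 7 were under the filter. *Ptger2*, *Ptger3*, *Ptgdr* and *Pparg* were listed at 0. *Ptger4*, which codes for the EP4 receptor, had 0.6, 0.91 and 0.66 RPKM in scramble and 2.65, 1.7 and 1.4 RPKM in *ptgs2*-KO samples, a rise of 0.74 ± 0.162 on the log2 scale (adjusted p = 0.0106). The groups did not overlap, with the highest value in *ptgs2*-KO replicate 1. *Ptger1*, the EP1 receptor and the most abundant of the family, averaged 28.6 RPKM in scramble and 24.6 RPKM in *ptgs2*-KO cells (adjusted p = 0.176).

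Genes that respond to cyclic AMP moved in both directions. Of 29 listed, 22 were tested, 2 were higher and 3 lower (22.7%), with a median log2 fold change of 0.01, equal to that of all genes, and 1 was higher whichever library was left out. The 3 that fell are immediate early genes. *Fos*, a subunit of the transcription factor AP-1, had 12.7, 10.9 and 13.9 RPKM in scramble and 5.9, 5.23 and 5.06 RPKM in *ptgs2*-KO samples, a fall of 1.07 ± 0.117 on the log2 scale (adjusted p = 6.6e-05). The groups did not overlap. The *ptgs2*-KO cells were also below *ptgs1*-KO cells in *Fos* (log2 difference -1.31, adjusted p = 3.6e-06), and they did not differ from *ptges*-KO cells beyond the test's threshold (adjusted p = 0.35).

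*Dusp1*, a phosphatase that switches off MAP kinases, averaged 140 RPKM in scramble and 102 RPKM in *ptgs2*-KO cells (log2 fold change -0.46, adjusted p = 0.00156). *Nr4a2*, an orphan nuclear receptor induced by cyclic AMP in several cell types, averaged 4.73 and 3.19 RPKM (log2 fold change -0.45, adjusted p = 0.033). The *Nr4a2* call was lost without *ptgs2*-KO replicate 1 or 2 (adjusted p = 0.122 and 0.0711) or scramble replicate 1 or 3 (0.130 and 0.106). *Cited2*, a transcriptional regulator that binds CBP, rose from 67.5 ± 5.34 to 98.9 ± 3.45 RPKM (log2 fold change 0.55, adjusted p = 0.00134). The promoters of the 3 genes that fell are printed below, chosen because they hold the letters bound by CREB. Those of the 2 list members that rose are not shown, and a part of CREB in the falls was not tested. Each is the 250 bases before the RefSeq start site in GRCm38.p6, read 5′ to 3′ on the gene's strand, and capitals mark TGACG, the core of the cyclic AMP response element, or CGTCA, the same letters on the other strand.
Fos (chr12:85473640-85473889, plus strand): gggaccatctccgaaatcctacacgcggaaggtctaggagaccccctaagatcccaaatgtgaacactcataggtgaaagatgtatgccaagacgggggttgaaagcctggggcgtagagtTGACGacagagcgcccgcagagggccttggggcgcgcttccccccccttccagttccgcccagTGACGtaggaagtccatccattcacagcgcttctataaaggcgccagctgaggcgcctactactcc
Dusp1 (chr17:26508473-26508722, minus strand): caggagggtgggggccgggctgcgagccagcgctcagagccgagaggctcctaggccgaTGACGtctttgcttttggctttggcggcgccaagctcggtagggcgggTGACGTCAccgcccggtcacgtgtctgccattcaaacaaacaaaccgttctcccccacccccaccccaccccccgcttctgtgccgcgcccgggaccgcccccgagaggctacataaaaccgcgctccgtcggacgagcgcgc
Nr4a2 (chr2:57124004-57124253, minus strand): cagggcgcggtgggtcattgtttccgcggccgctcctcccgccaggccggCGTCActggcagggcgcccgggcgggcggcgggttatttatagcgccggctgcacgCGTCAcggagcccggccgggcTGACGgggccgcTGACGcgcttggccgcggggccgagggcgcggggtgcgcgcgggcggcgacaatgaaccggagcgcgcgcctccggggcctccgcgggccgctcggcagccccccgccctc

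*Dusp1* holds the full palindrome TGACGTCA, which contains this core on both strands. Over windows of 300 bases, which add 50 bases after the start, the core was found on either strand in 11 of 17 cyclic AMP list genes with a window (64.7%) and in 37.6% of the 8497 tested genes with one. The list was drawn from genes known to respond to cyclic AMP, so a share above that of all genes was built into it. The match describes the letters only.

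The largest falls included those of endoglin and neuronal pentraxin 1. Endoglin (*Eng*, mm10 chr2:32646595-32682669), a co-receptor for TGF-β and BMP9 known from blood vessels, had 53.3, 50.8 and 54.5 RPKM in scramble and 0.55, 1.08 and 0.89 RPKM in *ptgs2*-KO samples. The ratio of the means was 62.9 and the fall 4.88 ± 0.143 on the log2 scale (adjusted p = 4.04e-10). *Eng* was all but absent from the 3 knockout samples, while it averaged 50.1 RPKM in *ptgs1*-KO and 27.5 RPKM in *ptges*-KO cells. Neuronal pentraxin 1 (*Nptx1*), a secreted synaptic protein, had 48.9, 54.7 and 51.8 RPKM in scramble and 6.71, 6.02 and 5.41 RPKM in *ptgs2*-KO samples (log2 fold change -2.91 ± 0.115, adjusted p = 5.33e-09). It averaged 3.91 RPKM in *ptges*-KO cells. Other falls were those of the neurofilament gene *Nefm*, from 6.59 ± 0.395 to 0.227 ± 0.0252 RPKM, the hyaluronan receptor gene *Layn*, from 7.12 ± 0.848 to 0.450 ± 0.193 RPKM, the ferritin receptor gene *Scara5*, from 12.3 ± 0.920 to 2.16 ± 0.211 RPKM, and the scavenger receptor gene *Colec12*, from 20.4 ± 1.35 to 4.46 ± 0.669 RPKM. *Tram1l1*, from 3.05 RPKM in scramble cells, was listed at 0 in the 3 knockout samples.

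Among the rises, *Aim2*, the sensor of cytosolic DNA (mm10 chr1:173350879-173466040), led with 0.68, 0.72 and 1.01 RPKM in scramble and 13.6, 13.1 and 13.2 RPKM in *ptgs2*-KO samples (log2 fold change 2.99 ± 0.112, adjusted p = 3.76e-09). It averaged 0.233 RPKM in *ptgs1*-KO and 0.0767 RPKM in *ptges*-KO cells, and the direct differences were 3.54 and 3.73 on the log2 scale. *Fstl3*, a secreted inhibitor of activin and myostatin, had 0.66, 0.82 and 0.81 RPKM in scramble and 11.9, 10.5 and 10.7 RPKM in *ptgs2*-KO samples (log2 fold change 2.77 ± 0.12, adjusted p = 7.48e-09). Both genes were high in the 3 knockout samples and in neither other knockout line, with direct differences for *Fstl3* of 3.54 and 2.56. *Syt13*, a synaptotagmin of vesicle transport, rose from 0.867 ± 0.226 to 12.1 ± 0.771 RPKM (log2 fold change 2.81), but it averaged 18.5 RPKM in *ptgs1*-KO and 6.42 RPKM in *ptges*-KO cells as well. The germ-line homeobox gene *Rhox5* rose from 2.44 ± 0.404 to 10.6 ± 1.16 RPKM, and *Xlr*, an X-linked lymphocyte gene, from 3.08 ± 0.356 to 21.4 ± 5.57 RPKM. Reads of *Xlr* and *Rhox5* may be shared with close copies of these multigene families, so their levels are uncertain. The plot of levels by sample shows the spread of the replicates in each group.

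**Figure D2:**
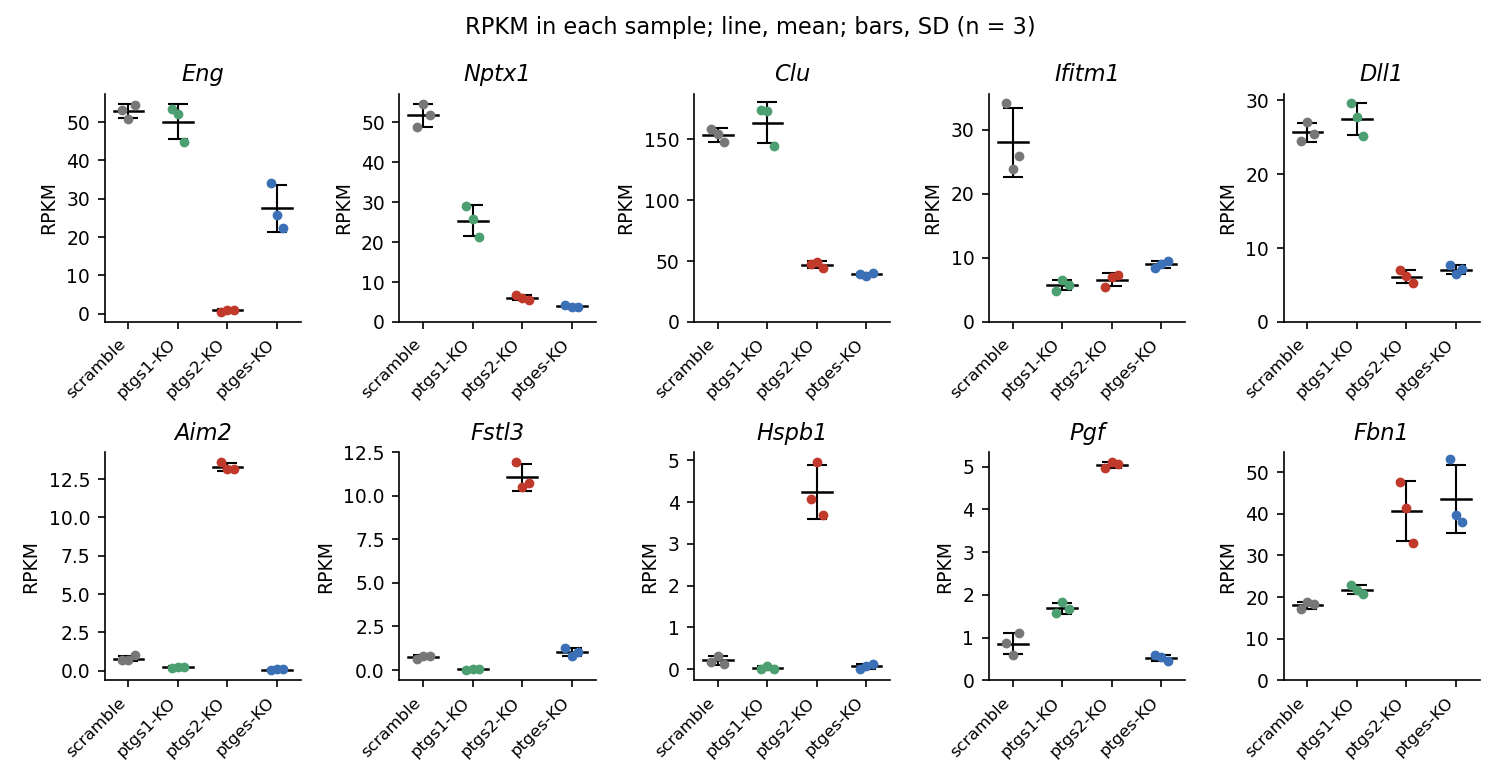
Each of the 10 panels is 1 gene, with the level in RPKM on the y axis and the 4 groups on the x axis; points are samples, lines means and bars SD (n = 3). *Eng* is near 0 and *Aim2*, *Fstl3*, *Hspb1* and *Pgf* are highest in *ptgs2*-KO samples, while *Nptx1*, *Clu*, *Dll1* and *Fbn1* lie near the *ptges*-KO level and *Ifitm1* is low in all 3 knockout lines.

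Members of the TGF-β and activin pathway changed in both directions. Of 36 listed, 29 were tested, 4 were higher and 5 lower (31.0%), with a median log2 fold change of -0.04. Only 3 were lower without *ptgs2*-KO replicate 3 or scramble replicate 1 or 3. The median was -0.11 without *ptgs2*-KO replicate 1 and -0.02 without *ptgs2*-KO replicate 3. It was -0.06 without scramble replicate 1 and -0.07 without scramble replicate 3. Beside *Eng*, the activin inhibitor follistatin (*Fst*) fell from 185 ± 6.06 to 106 ± 4.53 RPKM (log2 fold change -0.80, adjusted p = 0.000103), while its relative *Fstl3* rose. As said above, *Fstl3* passed the filter only through its level in *ptgs2*-KO cells. The activin subunit gene *Inhba* rose from 4.16 ± 0.578 to 7.96 ± 0.138 RPKM (log2 fold change 0.80, adjusted p = 0.00114). In the BMP pathway 2 of 18 tested genes were higher (1 without *ptgs2*-KO replicate 3 or scramble replicate 2) and 4 lower (33.3% called). *Msx1*, a homeobox target of BMPs, fell from 6.42 ± 0.891 to 2.40 ± 0.116 RPKM (-1.12), the ligand gene *Bmp4* from 9.28 ± 0.444 to 5.92 ± 0.364 RPKM (-0.57), and the ligand gene *Bmp6* rose from 2.75 ± 0.387 to 5.58 ± 0.247 RPKM (0.81).

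Factors that act on vessels were mostly lower among those that changed. Of 32 angiogenic factors 20 were tested, 7 were lower and 2 higher (45%), and their median log2 fold change was -0.18, or -0.10 without *ptgs2*-KO replicate 3. Adrenomedullin (*Adm*), a vasodilator peptide, had 5.2, 5.68 and 4.69 RPKM in scramble and 0.1, 0.13 and 0.18 RPKM in *ptgs2*-KO samples, a fall of 2.44 ± 0.111 on the log2 scale (adjusted p = 1.22e-08). *Adm* averaged 57.5 RPKM in *ptges*-KO and 0.0667 RPKM in *ptgs1*-KO cells, so the lines spanned a wide range. Of its receptor parts, *Ramp3* fell from 97.9 ± 5.06 to 48.0 ± 3.35 RPKM (log2 fold change -1.01, adjusted p = 0.00016) and *Calcrl* rose from 2.14 ± 0.0200 to 3.61 ± 0.346 RPKM (0.55). The *Calcrl* call was lost without *ptgs2*-KO replicate 2 (adjusted p = 0.0575). *Flt1*, the VEGF receptor 1, fell from 24.2 ± 2.21 to 12.8 ± 1.95 RPKM (-0.87). Against this direction, placental growth factor (*Pgf*), a ligand of that receptor, had 0.88, 0.6 and 1.1 RPKM in scramble and 4.97, 5.1 and 5.06 RPKM in *ptgs2*-KO samples, a rise of 1.71 ± 0.121 (adjusted p = 1.16e-06).

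Of 39 complement and coagulation genes 12 were tested, 5 were lower and 3 higher (66.7%), with a median of -0.28; 26 were under the filter and 1 was not matched. Tissue factor pathway inhibitor (*Tfpi*) had 4.76, 5.02 and 4.85 RPKM in scramble and 0.58, 0.5 and 0.4 RPKM in *ptgs2*-KO samples (log2 fold change -1.98 ± 0.137, adjusted p = 8.72e-07). Clusterin (*Clu*), a secreted chaperone that blocks the terminal complement complex, had 159, 155 and 147 RPKM in scramble and 47.8, 49.3 and 44.2 RPKM in *ptgs2*-KO samples (-1.68 ± 0.0809, adjusted p = 1.99e-08). Neither gene's groups came near each other, and *Clu* averaged 164 RPKM in *ptgs1*-KO and 39.1 RPKM in *ptges*-KO cells. Thrombomodulin (*Thbd*) fell from 37.1 ± 1.44 to 20.9 ± 1.25 RPKM (-0.80) and tissue plasminogen activator (*Plat*) from 51.8 ± 2.18 to 31.4 ± 3.39 RPKM (-0.71). The protein C receptor gene *Procr* rose from 0.473 ± 0.181 to 2.78 ± 0.747 RPKM (1.35) and the lectin pathway protease gene *Masp1* from 18.99 ± 1.27 to 36.1 ± 4.50 RPKM (0.89).

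Few chemokine and interleukin genes were active: 11 of 64 were tested, 5 were lower and 1 higher (54.5%), with a median of -0.30, or -0.19 without *ptgs2*-KO replicate 1. The higher gene, *Csf1*, which drives macrophage growth, kept its call without *ptgs2*-KO replicate 3 and lost it without each of the other 5 libraries. *Cx3cl1*, the chemokine fractalkine, fell from 46.8 ± 2.12 to 30.0 ± 2.45 RPKM (log2 fold change -0.63, adjusted p = 0.00228), and *Il34*, a ligand of the CSF1 receptor on macrophages, from 36.0 ± 3.77 to 23.4 ± 2.34 RPKM (-0.60, adjusted p = 0.00811). *Ccl2*, the monocyte chemokine, fell from 55.1 ± 7.98 to 34.4 ± 5.63 RPKM (-0.67), a call lost without *ptgs2*-KO replicate 1 (adjusted p = 0.0517) or scramble replicate 1 (0.0612). Of 41 hypoxia genes 32 were tested, 5 were lower and 1 higher (18.8%, beside 11.1% over all genes), with a median of -0.09. This median was -0.04 without scramble replicate 1, -0.05 without *ptgs2*-KO replicate 1 and -0.06 without *ptgs2*-KO replicate 3. *Egln3*, an oxygen-sensing prolyl hydroxylase, fell from 3.12 ± 0.402 to 0.303 ± 0.0569 RPKM (-1.66), and it averaged 0.163 RPKM in *ptgs1*-KO cells.

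The EGF family moved in 1 direction among the genes that passed. Of 19 ligands and receptors 12 were tested, 5 were lower and none was higher at an adjusted p under 0.05 (41.7%), and the median was -0.15. Leaving out any 1 of the 6 libraries also gave 5 lower and 0 higher. The ligand gene *Nrg2* had 9.37, 10.2 and 10.8 RPKM in scramble and 4.24, 3.28 and 4.05 RPKM in *ptgs2*-KO samples (log2 fold change -1.20 ± 0.117, adjusted p = 2.33e-05), without overlap. Betacellulin (*Btc*), a ligand of EGFR, fell from 33.3 ± 1.78 to 17.4 ± 0.626 RPKM (-0.89), and *Nrg1*, a ligand of ERBB3 and ERBB4, from 18.6 ± 1.23 to 12.03 ± 2.40 RPKM (-0.60). The receptor genes *Erbb3* and *Erbb2* fell from 1.85 ± 0.136 to 0.833 ± 0.182 RPKM (-0.64) and from 54.3 ± 3.17 to 38.5 ± 3.37 RPKM (-0.49).

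Among 25 tested receptor tyrosine kinases and their ligands (41 listed) 7 were lower and 3 higher (40.0%), with a median of -0.18. The lower count was 3 without *ptgs2*-KO replicate 3 or scramble replicate 3 and 4 without scramble replicate 1, and the higher count was 3 without *ptgs2*-KO replicate 3 and 1 without each other library. *Pdgfra*, the PDGF receptor alpha, had 8.06, 7.82 and 8.37 RPKM in scramble and 4.3, 3.64 and 3.36 RPKM in *ptgs2*-KO samples (log2 fold change -0.93, adjusted p = 6.6e-05). *Ptk7*, a pseudokinase of planar cell polarity, had 4.41, 4.76 and 5.37 RPKM in scramble and 15.6, 15.2 and 12.8 RPKM in *ptgs2*-KO samples (1.40 ± 0.116, adjusted p = 5.18e-06). Neither gene's groups overlapped, and *Ptk7* was higher in *ptgs2*-KO than in both other knockout lines (log2 differences 1.16 and 1.90).

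Downstream of BRAF, 36 of 38 genes of MAP kinase output and feedback were tested. Of these 5 were lower and 2 higher (19.4%, beside 11.1% over all genes), with a median of -0.02. The median was -0.08 without *ptgs2*-KO replicate 1 and -0.05 without scramble replicate 2. It turned positive without *ptgs2*-KO replicate 3 (0.03) or scramble replicate 3 (0.01). The lower count was 2 without *ptgs2*-KO replicate 3 or scramble replicate 3 and 3 without scramble replicate 1, and the higher count 1 without scramble replicate 3 and 0 without *ptgs2*-KO replicate 1 or 2 or scramble replicate 1 or 2. *Ier3*, a stress-induced early gene, fell from 99.8 ± 10.5 to 61.6 ± 2.88 RPKM (log2 fold change -0.68, adjusted p = 0.000443). Of 32 tested AP-1 and immediate early genes (37 listed) 4 were lower and 1 was higher (15.6%, beside 11.1% over all genes). *Fosb*, an AP-1 subunit like *Fos*, fell from 28.6 ± 1.30 to 17.3 ± 2.41 RPKM (-0.71), and *Cyr61*, a matricellular early gene, rose from 289.6 ± 11.7 to 412 ± 26.2 RPKM (0.51). The IGF binding proteins split: *Igfbp3* fell from 171 ± 8.69 to 70.9 ± 5.18 RPKM (-1.26) and *Igfbp6* from 113 ± 6.90 to 68.4 ± 12.4 RPKM (-0.74), while *Igfbp4* rose from 102 ± 6.61 to 147 ± 5.71 RPKM (0.52). These proteins carry insulin-like growth factors outside the cell.

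In the Wnt pathway 31 of 60 genes were tested, 8 were lower and 1 was higher (29.0%), with a median of -0.15. The median was -0.06 without *ptgs2*-KO replicate 3, and the higher count was 0 without *ptgs2*-KO replicate 1. The lower count was 3 without *ptgs2*-KO replicate 3, 4 without scramble replicate 3 and 5 without *ptgs2*-KO replicate 1 or scramble replicate 1 or 2. The membrane inhibitor *Apcdd1* and the secreted inhibitor *Dkk2* fell from 321 ± 2.67 to 195 ± 16.9 RPKM (log2 fold change -0.72) and from 188 ± 6.12 to 128 ± 11.03 RPKM (-0.55), and the receptor gene *Fzd8* from 15.7 ± 0.670 to 10.2 ± 0.970 RPKM (-0.57). In the Notch and hedgehog list 3 of 21 tested genes were lower and none was higher at an adjusted p under 0.05 (14.3%, near the 11.1% over all genes). The Notch ligand gene *Dll1* had 24.4, 27.1 and 25.5 RPKM in scramble and 7.01, 6.22 and 5.22 RPKM in *ptgs2*-KO samples, a fall of 1.90 ± 0.107 on the log2 scale (adjusted p = 9.71e-08). *Gas1*, a hedgehog co-receptor, fell from 178 ± 6.43 to 79.9 ± 5.19 RPKM (-1.15). The *Dll1* groups lay far apart.

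Of 67 axon guidance genes 36 were tested, 8 were lower and 2 higher (27.8%), with a median of -0.20, or -0.11 without *ptgs2*-KO replicate 3. With 1 library left out 6 to 8 were lower, and the higher count was 2 without scramble replicate 2, 1 without *ptgs2*-KO replicate 3 and 0 without each other library. *Plxna4*, a semaphorin receptor, fell from 4.55 ± 0.474 to 0.967 ± 0.286 RPKM (log2 fold change -1.50, adjusted p = 9.47e-06), and *Unc5b*, a netrin receptor, from 102 ± 5.38 to 46.0 ± 6.21 RPKM (-1.14, adjusted p = 3.31e-05). *Slit3*, a secreted repellent, had 73.8, 84.3 and 82.9 RPKM in scramble and 43.7, 39.0 and 33.3 RPKM in *ptgs2*-KO samples (-1.04 ± 0.125, adjusted p = 0.000159). It averaged 178 RPKM in *ptgs1*-KO cells, the opposite side of scramble.

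Matrix genes other than collagens changed in both directions. Of 34 matricellular and elastic fibre genes 21 were tested, 8 were lower and 3 higher (52.4%), with a median of -0.28. The lower count was 5 without *ptgs2*-KO replicate 3 and 3 without scramble replicate 1. *Ltbp4*, which anchors latent TGF-β to elastic fibres, fell from 246 ± 11.1 to 134 ± 18.4 RPKM (log2 fold change -0.88, adjusted p = 0.000478), and osteopontin (*Spp1*), a phosphorylated glycoprotein ligand of integrins, from 1703 ± 79.2 to 1160 ± 118 RPKM (-0.56). Against these, fibrillin-1 (*Fbn1*), the backbone of microfibrils, had 17.1, 18.7 and 18.3 RPKM in scramble and 47.7, 41.3 and 33.1 RPKM in *ptgs2*-KO samples (1.12 ± 0.135, adjusted p = 0.000174). All knockout values of *Fbn1* were above the scramble values, with replicate 1 the highest. *Fbln2*, a fibulin that binds it, rose from 375 ± 6.66 to 520 ± 50.6 RPKM (0.47) and averaged 76.1 RPKM in *ptges*-KO cells.

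Of 12 tested laminin and basement membrane genes 3 were lower and 2 higher (41.7%), with 1 higher when any library other than *ptgs2*-KO replicate 3 was left out. *Lama5* fell from 341 ± 31.2 to 182 ± 30.1 RPKM (log2 fold change -0.92) and agrin (*Agrn*) from 31.3 ± 2.07 to 17.2 ± 1.87 RPKM (-0.83). Of 26 tested integrins and matrix receptors 4 were lower and none was higher at an adjusted p under 0.05 (15.4%, beside 11.1% over all genes), among them *Itgb7*, from 213 ± 3.11 to 111 ± 10.6 RPKM (-0.95, adjusted p = 1.37e-05), and the laminin receptor chain *Itga7*, from 198 ± 2.59 to 109 ± 13.5 RPKM (-0.86). Without *ptgs2*-KO replicate 3 or scramble replicate 2 or 3 the count was 2. *Vcam1*, a ligand of leukocyte integrins, had 196, 202 and 187 RPKM in scramble and 99.9, 100.4 and 88.0 RPKM in *ptgs2*-KO samples (-1.02 ± 0.0968, adjusted p = 1.87e-05). The *Vcam1* groups did not overlap. The lysosomal list had 8 lower and 2 higher genes of 47 tested (21.3%), with a median of -0.14, or -0.08 without *ptgs2*-KO replicate 3. The lower count was 5 without *ptgs2*-KO replicate 1 or 3 or scramble replicate 2, and the higher count 1 without each library but *ptgs2*-KO replicate 1. The cathepsin gene *Ctsh* fell from 6.89 ± 1.30 to 1.49 ± 0.462 RPKM (-1.67) and *Ctsf* from 1.95 ± 0.234 to 0.0833 ± 0.0611 RPKM (-1.44).

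Interferon and nucleic acid sensing genes were split. Of 75 interferon response genes 34 were tested, 8 were lower and 4 higher (35.3%), and the median was 0.00. The lower genes included the *Ifitm* cluster, whose products block virus entry. *Ifitm1* had 34.2, 23.9 and 25.9 RPKM in scramble and 5.41, 7.02 and 7.25 RPKM in *ptgs2*-KO samples (log2 fold change -1.93 ± 0.143, adjusted p = 1.75e-06). It was low in all 3 knockout samples, and it averaged 5.73 RPKM in *ptgs1*-KO and 8.98 RPKM in *ptges*-KO cells. *Ifitm3* fell from 153 ± 11.7 to 86.2 ± 8.41 RPKM (-0.82) and *Ifitm2* from 267 ± 33.99 to 163 ± 20.996 RPKM (-0.71). These near-identical genes may share reads. They stand in a run of 5 neighbours that were all lower, *Athl1*, *Ifitm2*, *Ifitm1*, *Ifitm3* and *Pkp3* (mm10 chr7:140941391-141090510). *Stat2*, a transcription factor of interferon signalling, fell as well (-0.61), whereas *Samd9l* (0.66), the lectin gene *Lgals9* (0.65) and the tetherin gene *Bst2* (0.63) rose.

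Of 33 nucleic acid sensors and their partners 18 were tested, 4 were higher and 2 lower (33.3%), 1 lower without *ptgs2*-KO replicate 1 or 3 or scramble replicate 1. *Aim2* passed the filter only through its level in *ptgs2*-KO cells, so it entered the tested set because it was high there. Beside *Aim2*, the inflammasome protease gene *Casp1* rose from 1.54 ± 0.263 to 3.19 ± 0.294 RPKM (log2 fold change 0.73, adjusted p = 0.00477). Among 12 tested checkpoint ligands and immune suppressors 3 were higher and 1 lower (33.3%), with a median of 0.02. With any 1 library left out 3 were higher and 0 lower. *Cd80*, a costimulatory ligand of T cells, had 3.0, 2.64 and 3.65 RPKM in scramble and 7.84, 8.02 and 7.5 RPKM in *ptgs2*-KO samples (1.11 ± 0.143, adjusted p = 0.00029), and it was higher than in both other knockout lines (log2 differences 0.91 and 1.02). In the list of NF-kB targets and regulators 2 of 24 tested genes were higher and 2 lower (16.7%, beside 11.1% over all genes). With 1 library left out 1 to 2 were higher and 1 to 2 lower. *Birc3*, an inhibitor of apoptosis and NF-kB target, rose from 1.92 ± 0.306 to 5.81 ± 0.747 RPKM (1.22) and averaged 6.23 RPKM in *ptgs1*-KO and 4.95 RPKM in *ptges*-KO cells. The groups of both genes were apart. The interferon element GAAANNGAA was found on either strand in 13 of 29 interferon list genes with a promoter window (44.8%) and in 7.85% of the 8497 tested genes with one. The list was drawn from known interferon response genes, so a share above that of all genes was built into it.

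In the heat shock and chaperone list, every gene that changed rose. Heat shock proteins refold damaged proteins, and the HSP90 machine keeps kinases and nuclear receptors active. Of 26 listed, 23 were tested, 11 were higher (47.8%, beside 5.97% of all genes) and none was lower at an adjusted p under 0.05. Among the 11, *Hspb1* passed the filter only through its level in *ptgs2*-KO cells, so it was tested because it was high there. The median log2 fold change was 0.25, and the list medians of the 3 *ptgs2*-KO samples were 0.25, 0.26 and 0.24 beside 0.00, -0.01 and 0.01 in scramble samples. The *ptges*-KO samples also lay above scramble, at 0.24, 0.24 and 0.19, and the *ptgs1*-KO samples were at 0.03, -0.03 and -0.13. The count was 9 without *ptgs2*-KO replicate 1, 7 without replicate 2 or 3 and 6 without each of the scramble libraries.

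The small heat shock protein gene *Hspb1* had 0.18, 0.32 and 0.13 RPKM in scramble and 4.08, 4.95 and 3.69 RPKM in *ptgs2*-KO samples (log2 fold change 2.11 ± 0.132, adjusted p = 2.97e-07), and it averaged 0.0267 RPKM in *ptgs1*-KO and 0.0667 RPKM in *ptges*-KO cells. *Hsph1*, the HSP105 nucleotide exchange factor, had 128, 122 and 132 RPKM in scramble and 186, 181 and 171 RPKM in *ptgs2*-KO samples (0.49 ± 0.0718, adjusted p = 0.000843). Both were higher in every knockout sample than in any scramble sample, but *Hspb1* went from nearly silent to low and *Hsph1* from high to higher. *Hspa4*, of the same HSP110 family, rose from 171 ± 4.64 to 231 ± 9.57 RPKM (0.43, adjusted p = 0.00148), and *Hspd1*, the mitochondrial chaperonin HSP60, from 548 ± 11.5 to 737 ± 26.1 RPKM (0.43, adjusted p = 0.00301). The abundant *Hsp90ab1* rose from 2413 ± 48.3 to 3267 ± 104 RPKM (0.44, adjusted p = 0.0183), a call that was lost without *ptgs2*-KO replicate 3 (0.0539) or scramble replicate 1, 2 or 3 (0.0745, 0.0646 and 0.0546). In direct contrasts 10 of the 11 were higher in *ptgs2*-KO than in *ptgs1*-KO cells, and 1, *Hspb1*, was higher than in *ptges*-KO cells. Over all 1257 called genes, 903 differed in the same direction from *ptgs1*-KO and 381 from *ptges*-KO cells.

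The promoters of 4 of the 11 are shown because they hold a heat shock element, the letters bound by HSF1; this motif was added, and these genes were chosen, after the values were seen. Each line gives the 250 bases before the RefSeq start in GRCm38.p6, 5′ to 3′ on the gene's strand, with GAANNTTC in capitals.
Hspb1 (chr5:135887669-135887918, plus strand): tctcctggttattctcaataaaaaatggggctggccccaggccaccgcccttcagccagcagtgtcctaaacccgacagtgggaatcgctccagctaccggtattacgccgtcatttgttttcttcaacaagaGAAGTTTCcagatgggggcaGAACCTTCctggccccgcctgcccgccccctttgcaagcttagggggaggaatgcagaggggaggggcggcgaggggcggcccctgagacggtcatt
Hspd1 (chr1:55087933-55088182, minus strand): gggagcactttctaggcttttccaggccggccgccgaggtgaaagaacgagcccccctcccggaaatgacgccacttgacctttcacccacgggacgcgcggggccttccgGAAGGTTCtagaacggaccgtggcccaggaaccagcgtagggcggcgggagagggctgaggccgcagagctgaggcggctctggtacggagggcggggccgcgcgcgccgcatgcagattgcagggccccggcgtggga
Fkbp4 (chr6:128438657-128438906, minus strand): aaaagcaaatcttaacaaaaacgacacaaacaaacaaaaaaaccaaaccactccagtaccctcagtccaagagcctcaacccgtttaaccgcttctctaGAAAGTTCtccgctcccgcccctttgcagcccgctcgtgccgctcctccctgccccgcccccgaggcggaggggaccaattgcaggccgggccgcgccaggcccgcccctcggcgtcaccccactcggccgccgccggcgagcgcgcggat
Dnaja1 (chr4:40722218-40722467, plus strand): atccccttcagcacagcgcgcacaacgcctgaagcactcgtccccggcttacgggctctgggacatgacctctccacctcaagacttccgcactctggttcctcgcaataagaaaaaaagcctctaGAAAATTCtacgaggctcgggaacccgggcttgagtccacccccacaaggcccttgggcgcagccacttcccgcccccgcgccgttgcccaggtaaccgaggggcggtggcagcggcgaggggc

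*Fkbp4* and *Dnaja1* are co-chaperones of HSP90 and HSP70. *Fkbp4* averaged 216 RPKM in scramble and 261 RPKM in *ptgs2*-KO cells (log2 fold change 0.28), and *Dnaja1* 48.2 and 59.1 RPKM (0.29). The call of *Fkbp4* was lost without *ptgs2*-KO replicate 2 (adjusted p = 0.0686) or scramble replicate 2 or 3 (0.0879 and 0.0558), and that of *Dnaja1* without *ptgs2*-KO replicate 3 (0.0539) or scramble replicate 1 (0.0507). Over windows of 300 bases the element was found in 6 of the 8 higher members with a window (75.0%), in 10 of 17 list genes with one (58.8%) and in 6.71% of the 8497 tested genes with one. Among all genes called higher the share was 9.50%, and among those called lower 7.80%. The list was drawn from known heat shock and chaperone genes, so a share above that of all genes was built into it. This match, too, describes the letters only, and a part of HSF1 in the rises was not tested.

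Some genes of ribosome biogenesis and MYC targets rose by small amounts. Of 47 listed, 46 were tested, 11 were higher (23.9%) and none was lower at an adjusted p under 0.05, and 45 of 46 were fitted above 0. The median was 0.21, and the 3 *ptgs2*-KO samples had list medians of 0.23, 0.25 and 0.19. List medians were 0.17, 0.20 and 0.15 in *ptges*-KO and -0.01, -0.06 and -0.13 in *ptgs1*-KO samples. With 1 library left out 5 to 7 were higher, 7 without each of the 3 *ptgs2*-KO libraries or scramble replicate 1, 5 without scramble replicate 2 and 6 without scramble replicate 3. Without *ptgs2*-KO replicate 2, 1 gene was lower. The lower count was also 1 after median ratio scaling and with length and GC trends removed. *Ddx21*, a helicase of ribosomal RNA synthesis, rose from 113 ± 9.01 to 158 ± 5.91 RPKM (log2 fold change 0.48, adjusted p = 0.00442), and nucleolin (*Ncl*) from 191 ± 9.44 to 257 ± 14.01 RPKM (0.43, adjusted p = 0.00383). All 11 were also higher than in *ptgs1*-KO cells in the direct contrast, and 2 than in *ptges*-KO cells. Of all 1257 called genes, 903 and 381 differed in the same direction in these contrasts. The plot of both lists by sample shows the genes that were called. *Hspd1* is in both lists.

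**Figure D3:**
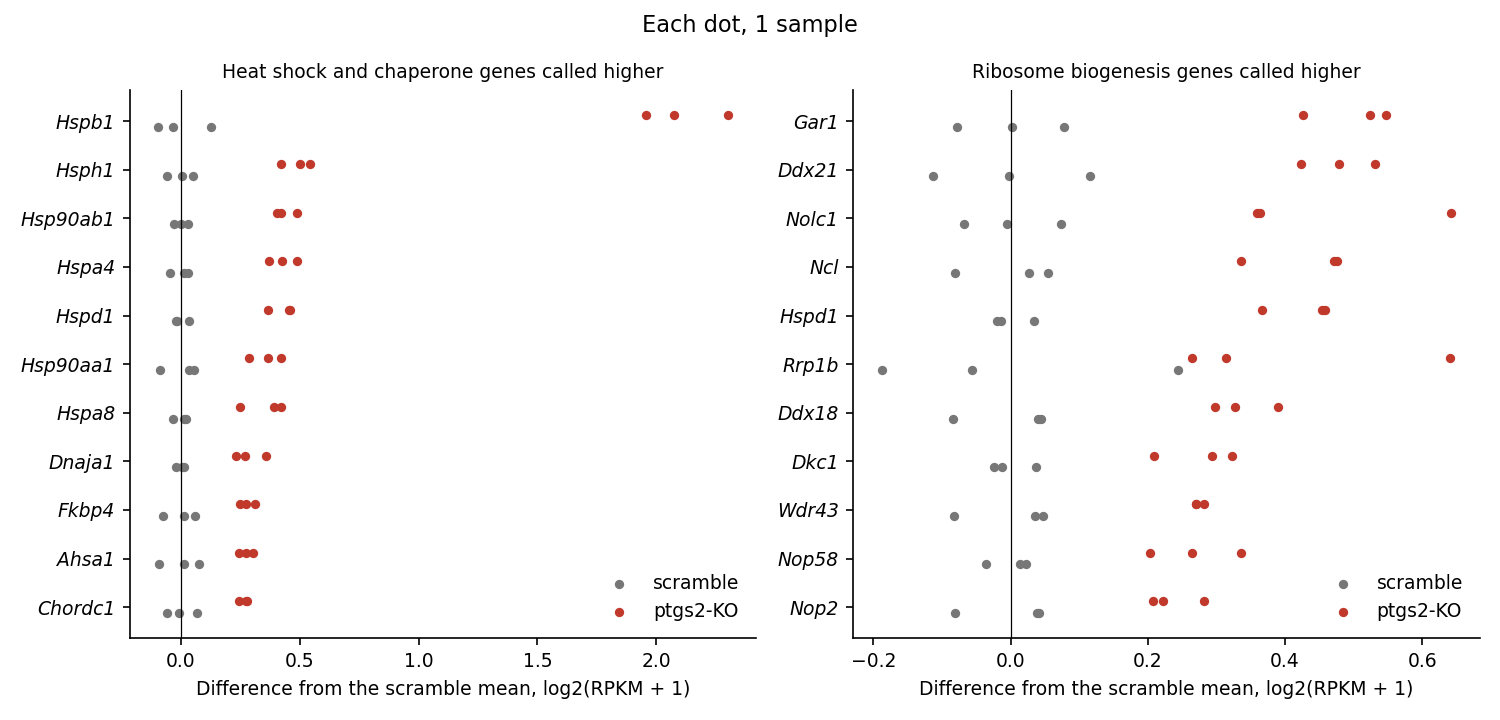
Each row is 1 of the 11 genes called higher in the heat shock and chaperone list (left) or in the ribosome biogenesis and MYC list (right), and each dot is 1 scramble or *ptgs2*-KO sample. The x axis is the difference from the scramble mean as log2(RPKM + 1); the *ptgs2*-KO dots lie to the right of the scramble dots, with *Hspb1* farthest at a fold change of 2.11.

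Of 66 tested cell cycle genes (69 listed) 9 were higher and none was lower at an adjusted p under 0.05 (13.6%, beside 11.1% over all genes), with a median of 0.11, and 4 to 8 were higher with 1 library left out, 5 without *ptgs2*-KO replicate 1 or scramble replicate 1 and 4 without scramble replicate 2. Of the 9, 3 lie on chromosome 3, whose genes were higher as a block (described below). Cyclin D2 (*Ccnd2*) rose from 69.1 ± 4.37 to 99.4 ± 9.43 RPKM (log2 fold change 0.52, adjusted p = 0.00811) and cyclin E1 (*Ccne1*) from 26.9 ± 1.08 to 37.2 ± 1.25 RPKM (0.45, adjusted p = 0.0027); both drive entry into S phase. All 56 listed DNA replication genes were tested, 6 were higher and none lower at an adjusted p under 0.05 (10.7%), and 1 to 3 were higher with 1 library left out. Of 29 tested p53 targets (35 listed) 6 were higher and none lower at an adjusted p under 0.05 (20.7%), with a median of 0.12 and with 4 to 6 higher with 1 library left out. Without *ptgs2*-KO replicate 2, or after median ratio scaling, 1 p53 target was lower. Cyclin G1 (*Ccng1*), a feedback regulator of p53, had 257, 287 and 278 RPKM in scramble and 421, 422 and 422 RPKM in *ptgs2*-KO samples (0.62 ± 0.0911, adjusted p = 0.000848). Its knockout samples were nearly equal and above every scramble sample. The kinase gene *Plk2* rose from 35.7 ± 1.77 to 52.5 ± 3.34 RPKM (0.54), and the cell cycle inhibitor p21 (*Cdkn1a*), named after its value was seen, from 133 ± 4.15 to 172 ± 2.64 RPKM (0.37, adjusted p = 0.00366).

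The plot of lists sets these counts side by side.

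**Figure D4:**
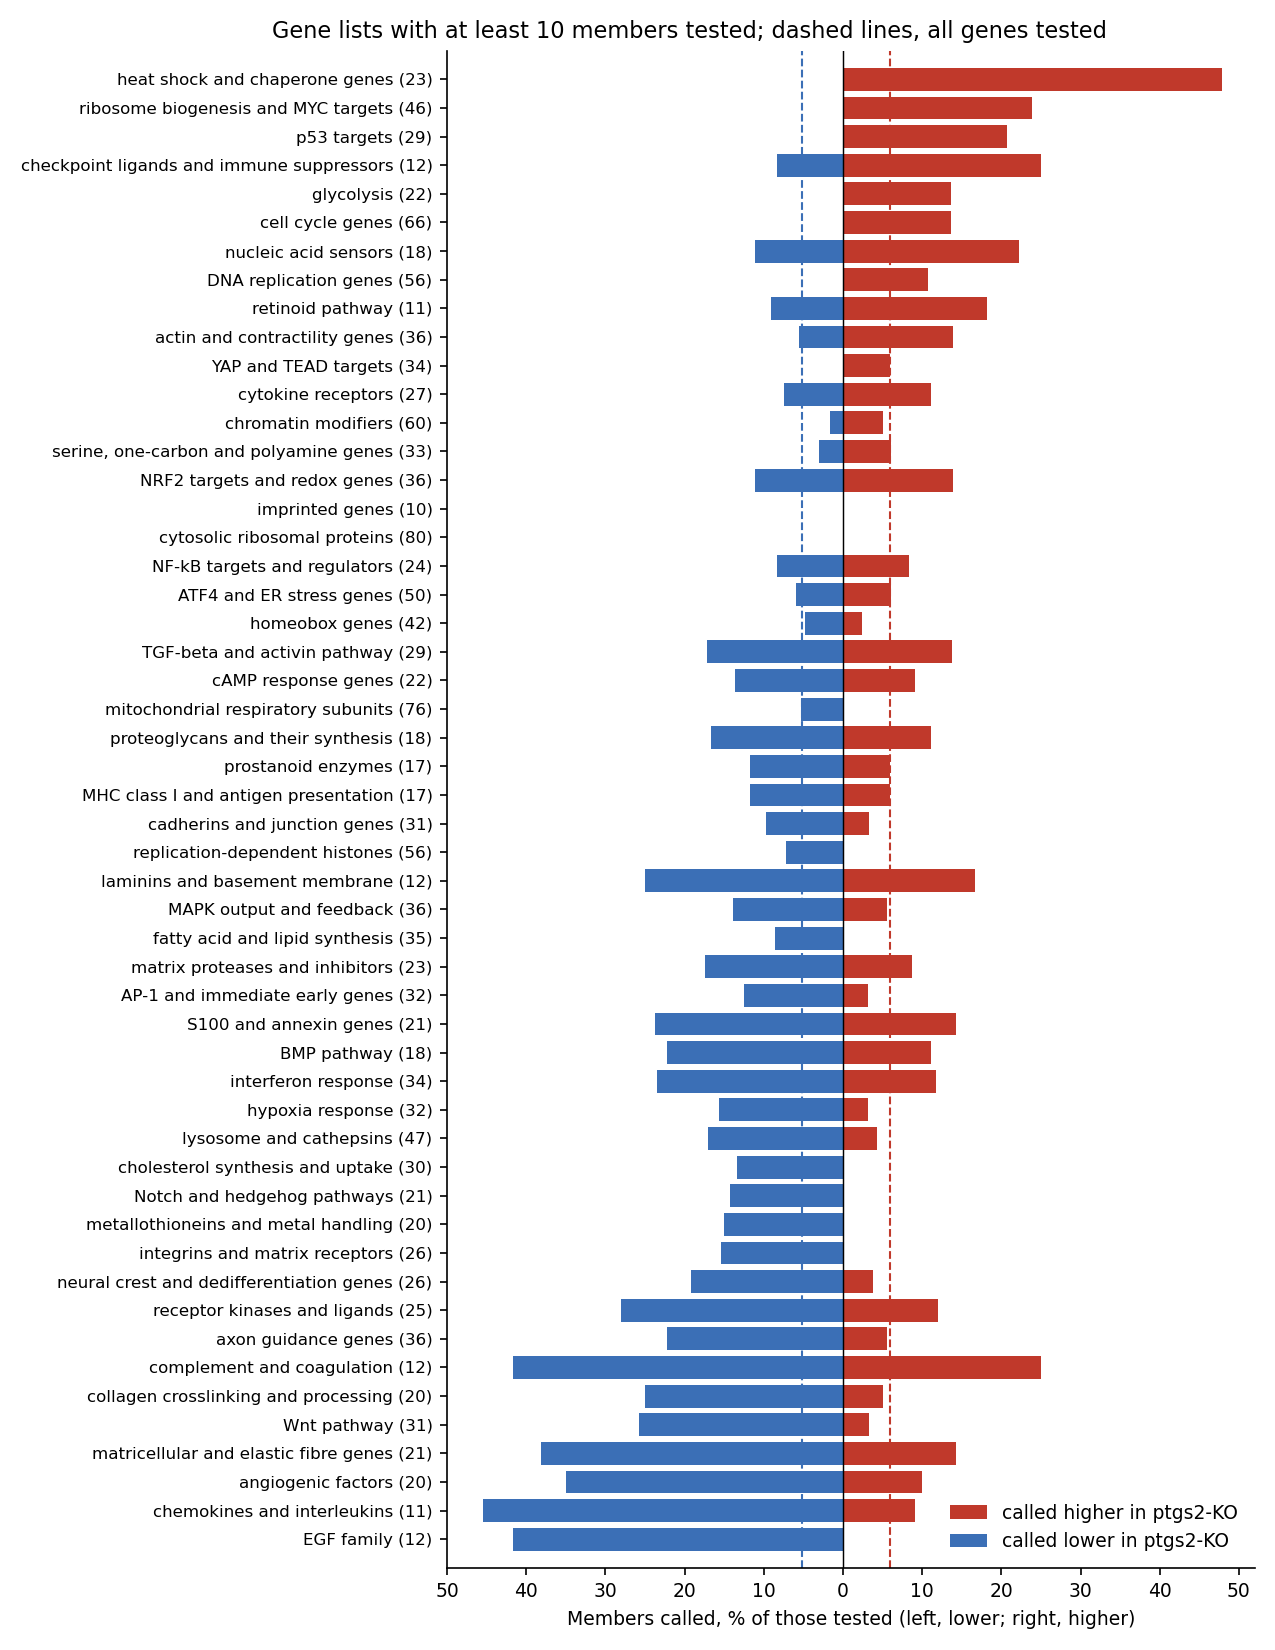
Each row is 1 gene list with at least 10 tested members (their number in parentheses), and the x axis is the percent of its tested genes called higher (to the right) or lower (to the left) in *ptgs2*-KO against scramble cells. Dashed lines mark the 5.97% and 5.17% over all 11282 genes, and the chaperone list reaches 47.8% on the higher side.

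Among the metabolic lists, NRF2 targets and redox genes changed in both directions. Of 43 listed 36 were tested, 5 were higher and 4 lower (25.0%, beside 11.1% of all genes), with 2 higher without *ptgs2*-KO replicate 1 or 3 or scramble replicate 1 and 3 without each other library. *Mgst3*, a microsomal glutathione transferase, fell from 328 ± 10.3 to 171 ± 37.5 RPKM (log2 fold change -0.97), and the quinone reductase gene *Nqo1* from 32.7 ± 1.39 to 21.6 ± 1.49 RPKM (-0.58), while *Gclm*, a subunit of the enzyme that starts glutathione synthesis, rose from 101 ± 5.01 to 149 ± 6.18 RPKM (0.56) and the peroxiredoxin gene *Prdx6* from 84.9 ± 0.984 to 115 ± 6.62 RPKM (0.43). *Aldh1l2*, a mitochondrial folate enzyme, had 4.64, 3.78 and 4.71 RPKM in scramble and 0.27, 0.27 and 0.19 RPKM in *ptgs2*-KO samples (-2.11 ± 0.115, adjusted p = 7.99e-08). It was low in each knockout sample, and it averaged 12.8 RPKM in *ptges*-KO cells. Of 30 tested genes of cholesterol synthesis and uptake 4 were lower (2 whichever library was left out) and none was higher at an adjusted p under 0.05, and of 22 tested glycolysis genes 3 were higher and none lower, with 0 to 2 higher with 1 library left out. These shares were 13.3% and 13.6%, beside 11.1% over all genes. With length and GC trends removed 9 cholesterol genes were lower and 1 higher, and 6 glycolysis genes were higher and 1 lower. After median ratio scaling 7 cholesterol genes were lower and 1 higher, and 3 glycolysis genes were higher and 1 lower. None of 10 tested imprinted genes was called (limma, adjusted p under 0.05), and of 42 tested genes of the homeobox list, which does not hold *Msx1* or *Rhox5* named above, 1 was higher and 2 lower (7.14%), with 0 of the list lower when any library other than scramble replicate 3 was left out. Of 20 tested metallothionein and metal handling genes 3 were lower (15%), of 35 fatty acid and lipid synthesis genes 3 were lower (8.57%; 1 higher and 8 lower with length and GC trends removed), and of 26 neural crest and dedifferentiation genes 5 were lower and 1 higher (23.1%).

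Lists of short transcripts had low medians that moved with *ptgs2*-KO replicate 1. The 76 mitochondrial respiratory subunits had 4 lower and 0 higher genes (5.26%) and a median of -0.21, with -0.53, -0.04 and -0.13 in the 3 knockout samples, and without replicate 1 the median was -0.07 with 0 lower. The lower count was also 0 without scramble replicate 1, 1 without scramble replicate 2 or 3 and 2 without *ptgs2*-KO replicate 3. With length and GC trends removed 9 were lower and 3 higher, with a median of -0.06. None of the 80 cytosolic ribosomal proteins was called (limma, adjusted p under 0.05), and their median of -0.22 came from -0.64, 0.03 and 0.00 in the 3 samples and was 0.00 without replicate 1. It was -0.33 without *ptgs2*-KO replicate 2, -0.31 without *ptgs2*-KO replicate 3 and -0.13 without scramble replicate 1. With length and GC trends removed the median was -0.02, and 12 of them were higher and 2 lower. The 56 tested replication-dependent histones had 4 lower genes (7.14%) and a median of -0.34 (-0.02 without *ptgs2*-KO replicate 2), with 0.03, -0.77 and -0.08 in the 3 samples, so here replicate 2 stood apart; 2 were lower without *ptgs2*-KO replicate 3 or scramble replicate 2 and 1 without scramble replicate 1. Histone mRNAs mostly lack a poly(A) tail, and many histone genes are near-identical copies.

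Gene families defined by the letters of their symbols, with at least 15 tested members, cut across these lists. Of 33 *Ddx* helicases, which unwind RNA, 10 were higher and none was lower (30.3%). Of 53 *Eif* translation initiation genes 9 were higher and none lower (17.0%), and of 23 *Dnajc* co-chaperones 4 were higher and none lower (17.4%). The *Ube* ubiquitin-conjugating genes had 7 higher and 1 lower of 37 (21.6%). The *Il* interleukin and receptor genes had 3 higher and 4 lower of 17 (41.2%) and the *Gpr* orphan receptors 1 higher and 4 lower of 17 (29.4%). The solute carriers had 4 higher and 14 lower of 160 (11.3%), near the share over all genes. Of 293 *Zfp* zinc finger genes 16 were called (5.46%), 7 higher and 9 lower, below the 11.1% over all genes, and no gene was called among 30 *Vps*, 33 *Zbtb*, 24 *Kif*, 47 *Rpl* and 43 *Rps* genes. With length and GC trends removed each of these 5 families had calls, among them 9 higher and 1 lower *Rpl* and 5 higher and 2 lower *Rps* genes.

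The rises were unevenly spread over the genome, which was noticed after the values were seen. Chromosome 3 held 531 of the tested genes (4.71%) but 129 of the genes called higher (19.1%). Thus 24.3% of its tested genes were higher and 1.88% lower, beside 5.27% higher on the other chromosomes together and 7.93% on the next highest. Its median log2 fold change was 0.18, whereas the medians of the other chromosomes ran from -0.05 to 0.06. The shift was alike in all 3 *ptgs2*-KO samples, whose chromosome 3 medians minus those of the other chromosomes were 0.17, 0.16 and 0.16, against 0.01, 0.01 and 0.00 in scramble samples. It was spread along the chromosome, since 8 bins of 20 Mb had medians from 0.11 to 0.22.

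The other knockout lines differed on the same chromosome. Against the other chromosomes the *ptgs1*-KO samples had -0.32, -0.29 and -0.31, and the *ptges*-KO samples 0.06, 0.06 and 0.06. The *ptges*-KO values were not even along the chromosome: bins from 0 to 80 Mb had medians of 0.21 to 0.43 against the scramble mean, and bins from 100 to 140 Mb of -0.17 to -0.31. In the direct contrast with *ptgs1*-KO cells 336 of the 531 genes were higher in *ptgs2*-KO cells and 18 lower. Over all genes tested, 23.6% differed in that contrast in either direction. Without *ptgs2*-KO replicate 1 the median was 0.17, and 86 genes were higher. Several genes named above lie there, *Gclm* and *Cyr61* among the rises and *Vcam1*, *Dkk2* and *Tram1l1* among the falls. So do 3 of the 9 higher cell cycle genes (*Ccna2*, *Plk4* and *Cenpe*), 2 of the 3 higher receptor kinases and ligands (*Pdgfc* and *Csf1*) and the 1 higher chemokine list gene, *Csf1*. Its largest rises were those of nephronectin (*Npnt*), a matrix ligand of integrins, from 3.24 ± 0.404 to 8.63 ± 2.52 RPKM (log2 fold change 1.15, adjusted p = 0.000885), and *Ddah1*, which degrades an inhibitor of nitric oxide synthase, from 18.7 ± 0.808 to 38.7 ± 1.72 RPKM (1.01, adjusted p = 1.62e-05). With the chromosome left out, 1118 genes were called, 545 of them higher. Only RNA was measured, and the cause was not tested.

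**Figure D5:**
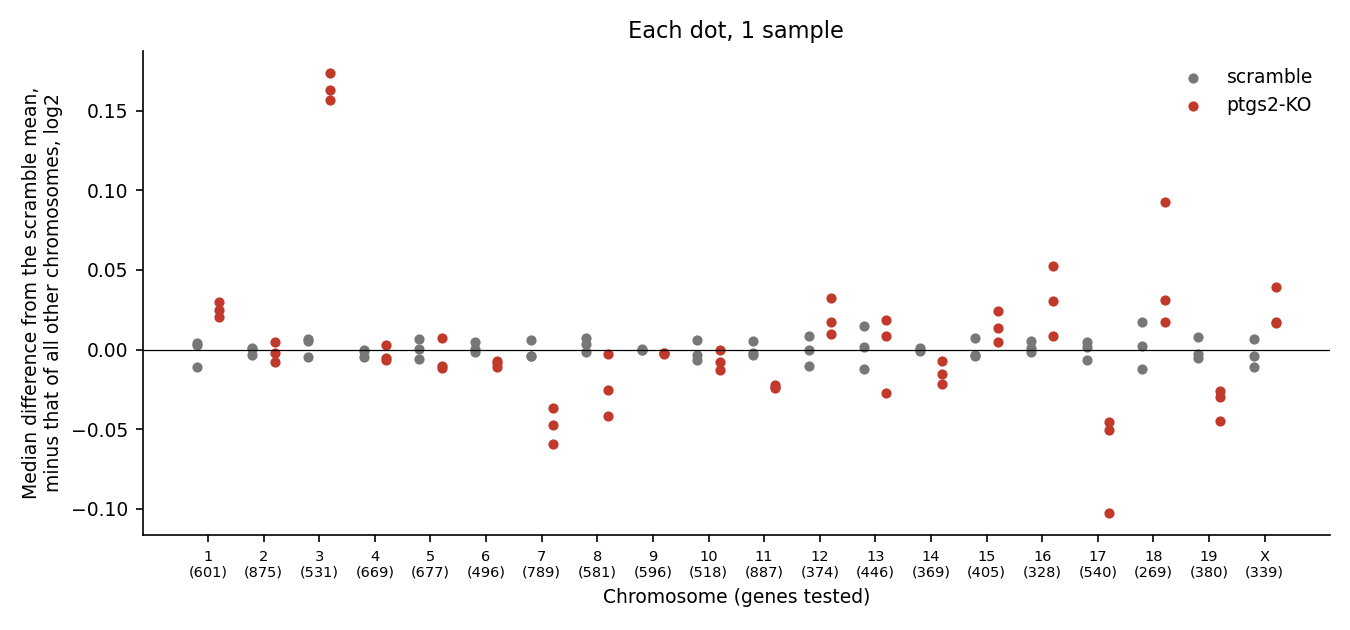
The x axis is the chromosome, and the y axis is the median log2 difference from the scramble mean over its tested genes, minus that of all other chromosomes. Each dot is 1 scramble or *ptgs2*-KO sample, and chromosome 3 lies apart at 0.17, 0.16 and 0.16 in the *ptgs2*-KO samples.

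Comparisons with scramble share the scramble samples, so the direct contrasts tell where *ptgs2*-KO cells differed from the other lines. Between *ptgs2*-KO and *ptgs1*-KO cells 2665 genes differed (23.6% of those tested), and between *ptgs2*-KO and *ptges*-KO cells 1873 (16.6%). Of the 1257 genes that differed from scramble, 903 also differed in the same direction from *ptgs1*-KO, 381 from *ptges*-KO and 299 from both. These contrasts share the *ptgs2*-KO samples, so some overlap would arise from the sharing alone. Its size is not given here. Genes named above that belong to the last group include *Ptgs2*, *Eng*, *Ptgr2*, *Aim2*, *Fstl3*, *Hspb1*, *Ptk7* and *Cd80*.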

How the data were processed

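RNA-seq was run on 12 samples in 4 groups of 3, with poly(A) RNA libraries and 101 bp paired-end reads. The labels name both an unstranded and a directional kit, and whether strand was used in counting is not given in the sources used here. The deposited values are RPKM per gene symbol, as a figure legend of the paper names them; the nearly equal sums per sample would also be given by a scaling to a fixed total. Reads were aligned to mm10 per the submitters' processing notes, and the aligner and counter are not given in the sources used here. Depth is unknown.

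From these values, log2(RPKM + 1) was fitted with limma 3.58.1 (R 4.3.3; lmFit and eBayes with trend) over all 12 samples, for the 11282 genes averaging 1 RPKM or more; p-values were adjusted by Benjamini-Hochberg. A fold change on this scale understates the change of low genes. Gene lists (63), the comparison and its members were chosen with earlier results of these data known. Named genes were the 3 targets, the 15 largest rises and falls without overlap, the 5 most abundant called each way, and up to 4 called members of each list each way; others are list members or were named after their values were seen, and some results are not reported here. Positions are those of GENCODE M21, matched to 94.6% of tested genes. The alternatives are given below.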

Additional observations from a re-analysis of the deposited data

Results flagged for a closer look

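In the 5 genes given here, the log2 fold change against scramble in *ptgs2*-KO cells differed in sign from that in another knockout line. The direct contrast of the lines passed the test (limma, Benjamini-Hochberg adjusted p). They are a selection and not a count of all such genes. *Adm* was -2.44 in *ptgs2*-KO and 3.24 in *ptges*-KO cells, a difference of -5.68 (adjusted p = 2.36e-12). *Aldh1l2* was -2.11 and 1.37 in the same lines, a difference of -3.47 (adjusted p = 3.18e-10). The collagen chain gene *Col5a2* was 2.75 in *ptgs2*-KO and -2.12 in *ptgs1*-KO cells, a difference of 4.87 (adjusted p = 1.47e-11). *Igfbp3* was -1.26 and 1.40 in these lines, a difference of -2.66 (adjusted p = 5.72e-10). *Slit3* was -1.04 and 1.13, a difference of -2.18 (adjusted p = 4.84e-08).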

How the results depend on the processing

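The fall of *Ptgs2* passed the test under every setting run, at -3.21 to -3.31, and none of the 257 named genes changed sign. Of 254 other named genes that were called, 96 kept their call under all 18 alternatives, 61 more kept it under each one in which they were tested (other filters left them out), and 213 kept it under each one in which they were tested that keeps every library. The 1257 called genes (674 higher, 583 lower) became 1927 after median ratio scaling (918 lower), 2408 with length and GC trends removed (1265 higher, 1143 lower), 111 with a log2 fold change of at least 1 in size (40 and 71) and 532 at an adjusted p under 0.01 (267 and 265). Quantile normalization gave 1031 higher, and a filter at a mean of 10 RPKM 348 lower. Leaving out 1 library gave 722 to 885 genes, 345 to 457 higher and 339 to 491 lower. With trends removed 13 chaperone and 23 ribosome biogenesis genes were higher and 172 genes on chromosome 3. In the ribosome biogenesis list 1 gene was then lower. Rescaling without the 20 most abundant genes, chosen after seeing the data, gave 1509 genes. Stricter thresholds, filters and fewer samples lower counts by construction; for the scalings and trends the cause was not tested. Depth is unknown, so genes near the filter carry the least certain values.

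The replicate numbers did not pair the samples: deviations of same-numbered samples correlated at -0.28, -0.12 and -0.16. With the replicate block 1365 genes were called, and 2348 with the replicate block and trends removed (1232 higher, 1116 lower).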
